A study of Arabidopsis thaliana with 12 samples.

Results

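The B-box zinc finger family of Arabidopsis thaliana was followed by RNA sequencing in whole seedlings of the accession Nossen (No-0). Its members here are the 29 genes, among 32673 in the count table, whose description names a B-box or a CONSTANS-like protein. The 12 libraries form 4 groups of 3, from wild type and from a line expressing KNAT1 under the 35S promoter (35S::KNAT1), each kept in paclobutrazol (PAC) or in paclobutrazol plus gibberellin (PAC+GA3). Every seedling was 7 days old, had grown under continuous light and spent 18 h in 10 µM PAC, so all 4 groups share a block of gibberellin synthesis. For the last 5 h they stayed in 10 µM PAC, or 100 µM GA3 was added to it. The question of the series is how gibberellin and KNAT1, a class I KNOX homeodomain protein also called BREVIPEDICELLUS, act together on the transcriptome. The 35S promoter drives KNAT1 in nearly all tissues rather than in its own domain. How many independent lines were used, and at what hour the seedlings were taken, is not given in the sources used here.

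B-box proteins carry zinc-binding B-box domains, singly or in pairs, through which they bind other proteins, and part of the family also carries a CCT domain that contacts DNA and NF-Y subunits. CONSTANS (CO) is the best known: in long days it switches on the florigen gene FT in leaves. Other members set how strongly seedlings respond to light, mostly through the factor HY5 and the ubiquitin ligase COP1. The transcripts of many members rise and fall over the day under the circadian clock. The family is sorted here into 5 groups known from their domains: I and II (a pair of B-boxes and CCT), III (a single B-box and CCT), IV (a pair of B-boxes, no CCT) and V (a single B-box, no CCT). A CCT pattern searched in the RefSeq proteins matched all 17 members of groups I to III and 0 of the 12 members of groups IV and V. A B-box pattern searched beside it did not give the stated number of B-boxes for every gene. It matched 1 in COL9, BBX8 and BBX19, 2 in BBX27 and 0 in BBX16 and BBX32, among others. The number of B-boxes per group is therefore taken from prior knowledge and was not borne out by this search. Symbols follow RefSeq, so STO is BBX24, BZS1 is BBX20, COL9 is BBX7 and BBX8 is COL10.

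Upstream sequences are shown for the 3 genes that were higher in 35S::KNAT1 (BBX8, COL9 and BBX13) and for 2 that were lower (COL2 and COL1), because BBX8 and COL9 encode similar proteins (72.3% identical residues) and so do COL2 and COL1 (69.2%). Each is the 300 bases before the RefSeq gene start on the gene's strand, 5′ to 3′, read from the RefSeq TAIR10.1 assembly, which is of the Columbia accession and not of Nossen. Capitals mark the evening element AAAATATC on either strand, the sequence to which the morning clock proteins CCA1 and LHY bind.
BBX8 promoter, chr5:19563833-19564132, minus strand: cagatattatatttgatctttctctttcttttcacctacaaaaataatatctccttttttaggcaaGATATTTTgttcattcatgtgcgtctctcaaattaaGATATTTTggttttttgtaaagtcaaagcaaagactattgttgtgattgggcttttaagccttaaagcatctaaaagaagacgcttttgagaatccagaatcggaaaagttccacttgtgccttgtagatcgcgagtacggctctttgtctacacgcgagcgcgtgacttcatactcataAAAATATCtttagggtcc
COL9 promoter, chr3:2441265-2441564, plus strand: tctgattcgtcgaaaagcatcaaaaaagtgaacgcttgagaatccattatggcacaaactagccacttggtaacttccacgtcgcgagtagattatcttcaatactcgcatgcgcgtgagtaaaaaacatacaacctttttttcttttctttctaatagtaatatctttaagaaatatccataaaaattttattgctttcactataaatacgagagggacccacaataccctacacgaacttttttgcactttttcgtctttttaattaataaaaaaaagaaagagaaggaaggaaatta
BBX13 promoter, chr1:9778044-9778343, minus strand: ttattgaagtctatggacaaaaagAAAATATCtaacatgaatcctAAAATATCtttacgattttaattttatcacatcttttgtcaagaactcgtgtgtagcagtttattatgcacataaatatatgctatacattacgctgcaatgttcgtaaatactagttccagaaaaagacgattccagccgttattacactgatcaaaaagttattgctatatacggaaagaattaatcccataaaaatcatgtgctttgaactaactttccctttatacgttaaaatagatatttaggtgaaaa
COL2 promoter, chr3:489468-489767, minus strand: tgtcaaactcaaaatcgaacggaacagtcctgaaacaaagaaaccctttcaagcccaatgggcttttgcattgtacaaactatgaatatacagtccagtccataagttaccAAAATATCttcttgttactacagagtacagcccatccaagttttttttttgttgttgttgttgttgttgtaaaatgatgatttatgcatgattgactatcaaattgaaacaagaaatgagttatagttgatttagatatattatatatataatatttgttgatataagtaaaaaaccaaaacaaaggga
COL1 promoter, chr5:5177898-5178197, minus strand: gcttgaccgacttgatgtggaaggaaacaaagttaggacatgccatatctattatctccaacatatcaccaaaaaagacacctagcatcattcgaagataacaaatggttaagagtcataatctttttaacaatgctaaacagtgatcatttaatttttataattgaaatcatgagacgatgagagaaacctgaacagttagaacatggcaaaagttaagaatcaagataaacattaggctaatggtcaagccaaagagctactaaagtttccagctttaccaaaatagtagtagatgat

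Counted back from the gene start, the BBX8 window held the evening element at -234, -198 and -18, the BBX13 window at -276 and -255, and the COL2 window at -189. The COL9 and COL1 windows held none, so within these windows neither pair shared its pattern. COL2 starts at base 489467 in RefSeq and at 488693 as counted, while both starts of COL1 are at 5177897. The windows of that pair therefore do not lie at matched places relative to the genes as counted. Among all 29 genes, 5 windows (17.2%) held the element, against 1927 of 27438 windows of the same length in the genome (7.02%), and the other 2 were those of STO and BBX27. By genotype call under PAC, described below, it was found in 2 of 3 genes that were higher, 2 of 9 that were lower, 1 of 12 that were not called and 0 of 5 that were not tested. The G-box CACGTG, to which HY5 binds, was in 4 of 29 windows (13.8%, against 7.09%). By the same calls it was in 0 of 3 higher, 1 of 9 lower, 1 of 12 not called and 2 of 5 not tested. The COL4 site, at -169, lies inside the gene as counted, which starts before the RefSeq gene. The inner part of the G-box, ACGT, was in 15 windows (51.7%, against 49.0%). The morning-phase sequence CCACAC was in 3 windows (10.3%, against 7.23%). TGAC, the core of sequences that KNOX proteins bind, was in 23 (79.3%, against 81.0%), and at least 2 copies were in 18 (62.1%, against 51.8%). Both strands were searched for each, every G-box also counts as an ACGT, and a match describes these letters only.

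Library totals ran from 9232836 to 14053594 counts. KNAT1, the transgene's target, lay between 17.6 and 24.6 CPM (counts scaled to library size by TMM) in the 6 wild-type libraries and between 389 and 483 CPM in the 6 of 35S::KNAT1, with no overlap. Wild-type PAC replicates 2 and 3 and 35S::KNAT1 PAC+GA3 replicate 1 stood apart by their counts on an rRNA gene (0.488%, 0.347% and 1.435%, against 0.11% to 0.197% elsewhere) and on organelle genes (0.944%, 0.676% and 0.868%, against 0.139% to 0.263%). Green-tissue and root marker genes were both present in every library. Separate cultures for the replicates are not stated in the labels, so the p-values here reflect spread among libraries that may be only technical. Throughout, a gene is called when its edgeR quasi-likelihood p, adjusted over 19879 tested genes by Benjamini-Hochberg, is below 0.05, and differences are log2 ± SE.

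Of the 29 genes, 24 passed the filter on low counts. BBX26 and BBX9 had 0 counts in all 12 libraries, and 3 counts, the limit that 0 allows, correspond to 0.213 to 0.325 CPM per library. BBX10 and bbx23 had 1 count each in all, and BBX31, a small protein that joins CO to the TOPLESS repressor, had 4 to 11 counts per library. To compare genes, CPM was divided by exon length in kilobases. On that scale in wild-type PAC, COL4 was the highest with a mean of 181 CPM per kilobase, followed by STO with 116, COL3 with 103 and COL5 with 56.9. COL4's value is overstated, because its RefSeq exons hold only the 1089 coding bases. CO lay near the bottom with 0.824, below its close relatives COL1 (21.1) and COL2 (11.7). CO's value is understated, because its divisor of 2924 bases is the whole RefSeq gene, which reaches beyond the gene as counted on both sides. The RefSeq gene of COL2 also reaches beyond the gene as counted. In CPM alone, the means in wild-type PAC were 2.41 for CO, 35.8 for COL1 and 26.3 for COL2. The ranges of STO (113 to 120) and COL3 (94.4 to 114) overlapped, as did those of COL5 (53.6 to 58.7) and BBX14 (43.6 to 60.4).

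**Figure D1:**
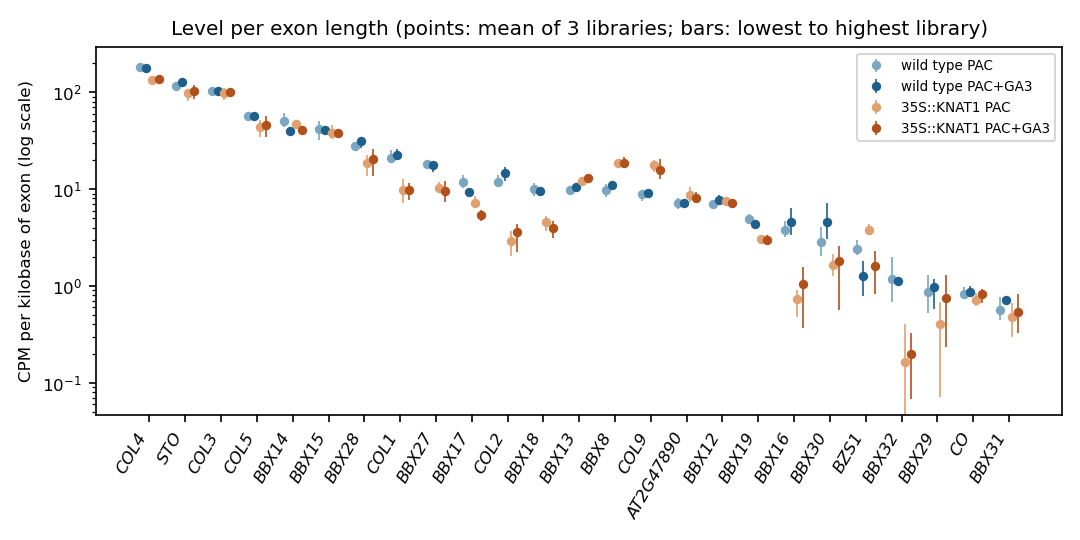
Level of each B-box gene with a count in wild-type PAC, in CPM per kilobase of exon (y axis, log scale), for the 4 groups; points are means of 3 libraries and bars run from the lowest to the highest library. The genes span from COL4 at 181 to BBX31 at 0.562 in wild-type PAC; the bar of BBX32 in 35S::KNAT1 PAC runs off the axis because its lowest library is at 0.

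The largest difference in these genes lay between genotypes. Under PAC, 12 of the 24 tested genes differed between 35S::KNAT1 and wild type, where 25.2% of all tested genes did. Of these, 3 were higher in 35S::KNAT1 (12.3% of all genes) and 9 were lower (12.9% of all genes). Under PAC+GA3, 13 of 24 (54.2%) differed against 25.5% of all genes, 3 of them higher (12% of all genes) and 10 lower (13.6%). The median difference of the 24 was -0.41 under PAC, where that of all tested genes was 0.004, and -0.32 under PAC+GA3, where it was 0.012. The comparisons in the 2 media share no library. All 3 genes higher and all 9 genes lower under PAC were called in the same direction under PAC+GA3, which adds BBX30 alone. With total-count scaling in place of TMM, the median of all genes shifted by 0.095 under PAC and 0.103 under PAC+GA3, and the split of all calls went from 2443 higher and 2574 lower to 3865 and 1872 under PAC, and from 2382 and 2695 to 4007 and 2019 under PAC+GA3. The B-box genes then gave 3 higher and 9 lower in each medium. Of all genes called higher under PAC 74.4% were called higher under PAC+GA3, and of those called lower 79.6% were called lower.

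**Figure D2:**
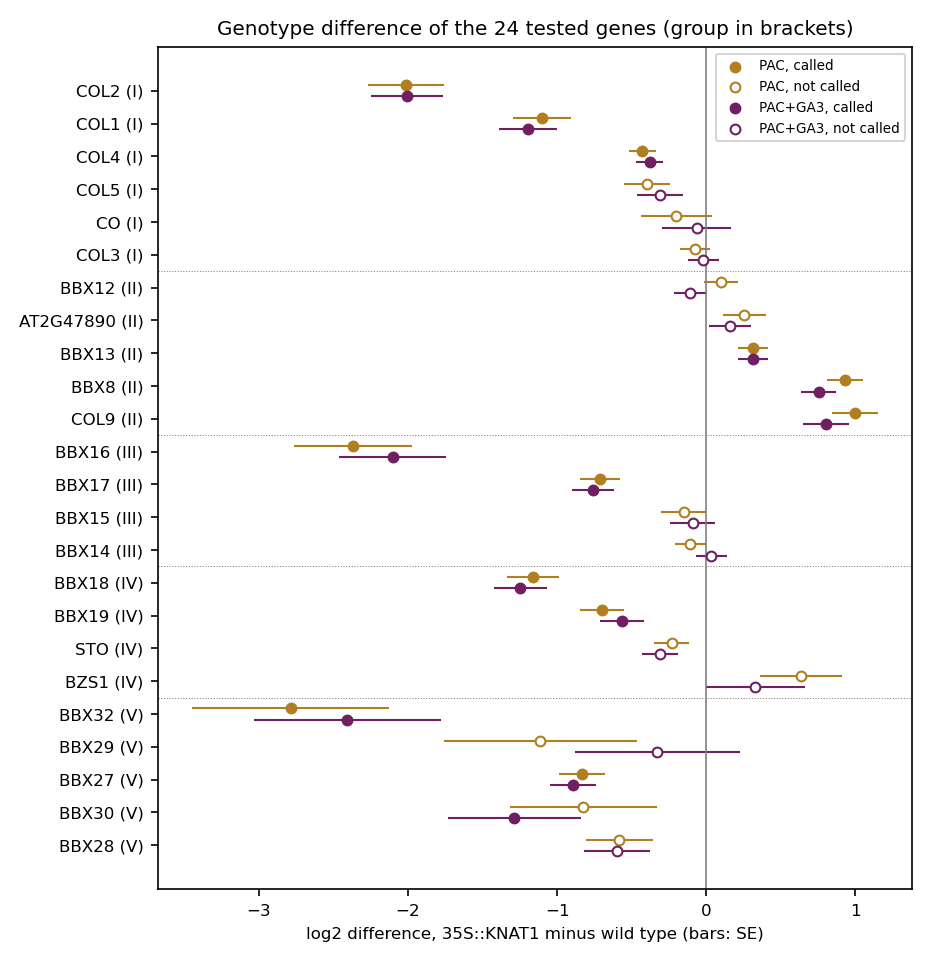
Difference between 35S::KNAT1 and wild type (x axis, log2) for the 24 tested genes, sorted by structural group, under PAC and PAC+GA3; filled points are called, open points are not, bars are SE. All 3 genes to the right that were called belong to group II, and the called genes of the other groups all lie to the left.

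In group I, which holds CO and its nearest relatives, COL2, COL1 and COL4 were lower in 35S::KNAT1 in both media and CO, COL3 and COL5 were not called. COL2 had 23.6, 24.1 and 31.3 CPM in wild-type PAC and 6.98, 4.57 and 8.25 CPM in 35S::KNAT1 PAC. With GA3 it had 27.3, 32.2 and 38.6 CPM in wild type and 9.44, 5.02 and 9.81 CPM in 35S::KNAT1. Every wild-type library lay above every 35S::KNAT1 library. The difference was -2.01 ± 0.25 under PAC (adjusted p = 9.39e-05), a 4.04-fold lower level, and -2.00 ± 0.24 under PAC+GA3.

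COL1, which lies beside CO on chromosome 5, had 33.1, 31.5 and 42.7 CPM in wild-type PAC and 16.8, 12.2 and 21.4 CPM in 35S::KNAT1 PAC. Its levels with GA3 were 34.3, 37.2 and 44.1 CPM in wild type and 19.5, 13.2 and 17.7 CPM in 35S::KNAT1. The genotypes did not overlap in either medium, and the differences were -1.10 ± 0.20 (adjusted p = 0.00106) and -1.19 ± 0.19. A gene of 17 to 36 counts per library, AT5G15845, overlaps COL1 on the other strand, and COL1 itself had 147 to 485; the strand setting of the counting is not given in the sources used here. COL4, known as a repressor of flowering, had 194, 186 and 212 CPM in wild-type PAC against 150, 137 and 153 CPM in 35S::KNAT1. Its difference was small but clear of the spread, at -0.43 ± 0.09 under PAC (adjusted p = 0.00161) and -0.38 ± 0.09 under PAC+GA3.

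CO itself had 2.17, 2.24 and 2.82 CPM in wild-type PAC, 2.34, 2.37 and 2.91 CPM in wild-type PAC+GA3, 1.81, 2.45 and 2.01 CPM in 35S::KNAT1 PAC, and 2.73, 2.60 and 1.93 CPM in 35S::KNAT1 PAC+GA3. The 4 groups overlapped, with 19 to 33 counts per library. The genotype difference was -0.20 ± 0.24 under PAC (adjusted p = 0.60) and -0.06 ± 0.23 under PAC+GA3. FT, the gene CO acts on, was at 0 in 11 libraries and at 0.0941 CPM in wild-type PAC replicate 3, and its paralogue TSF was at 0 in all 12. CO shares 68.0% of residues with COL2 and 67.3% with COL1, counted over the shorter protein, and how reads shared by such genes were counted is not given. COL3, which binds COP1 and promotes seedling light responses, differed by -0.08 ± 0.10 and -0.02 ± 0.10. COL5 had 91.8, 83.8 and 91.2 CPM in wild-type PAC and 68.6, 54.3 and 80.3 CPM in 35S::KNAT1 PAC, which do not overlap, yet its difference of -0.40 ± 0.15 missed the threshold (adjusted p = 0.0755). With replicate number as a block it passed (adjusted p = 0.0121), and 13 of the 24 genes were then called under PAC, where 31% of all genes were.

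**Figure D3:**
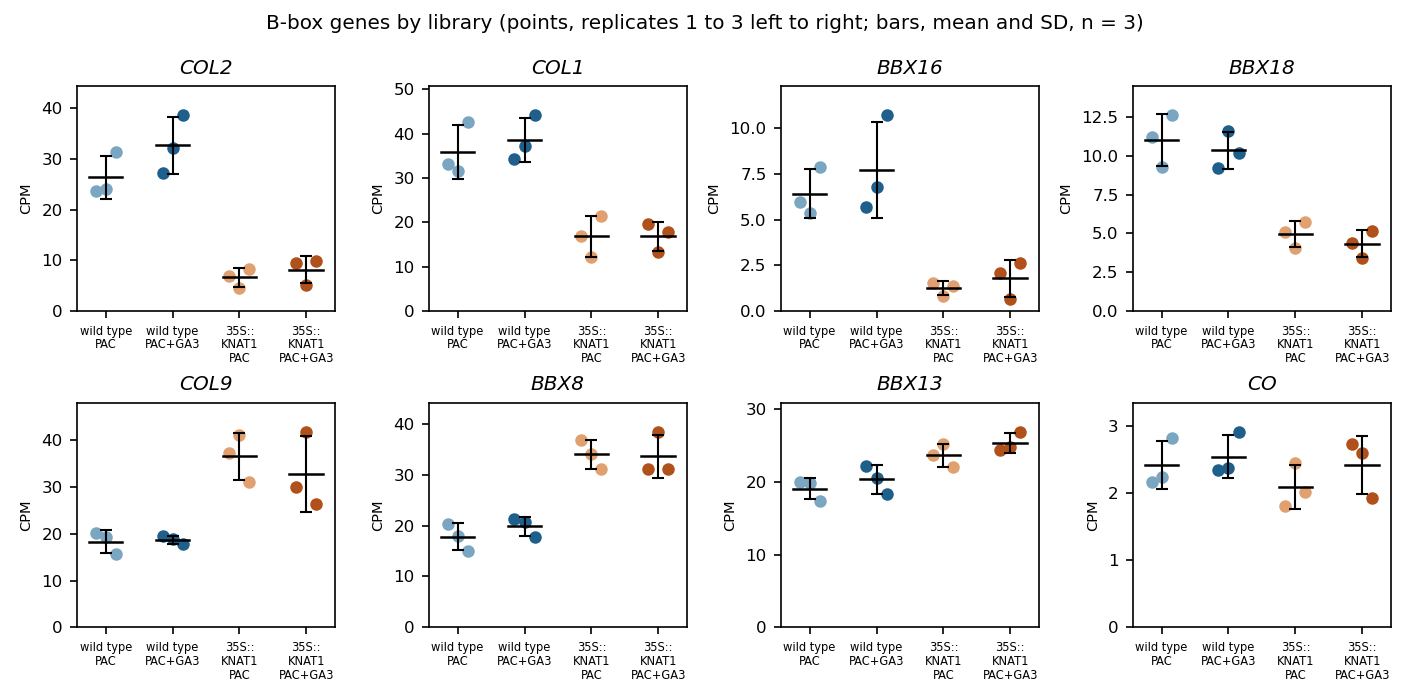
Level in CPM (y axis, from 0) of 8 B-box genes in each of the 12 libraries by group; points are libraries, horizontal lines and bars are mean and SD of 3. COL2, COL1, BBX16 and BBX18 are lower in every 35S::KNAT1 library than in every wild-type library, COL9, BBX8 and BBX13 are higher in each medium, and CO overlaps.

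Group II holds the 3 of the 29 genes that were called higher in 35S::KNAT1. COL9 delays flowering when overexpressed, and BBX8 is its closest relative, with 72.3% identical residues. COL9 had 20.1, 19.3 and 15.6 CPM in wild-type PAC and 37.3, 41.2 and 31.1 CPM in 35S::KNAT1 PAC. With GA3 its values were 19.5, 18.9 and 17.8 CPM in wild type and 30.1, 41.8 and 26.4 CPM in 35S::KNAT1. No library of one genotype reached the range of the other, and the differences were 1.00 ± 0.16 (adjusted p = 0.000194) and 0.80 ± 0.16 (adjusted p = 0.00114).

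BBX8 had 20.4, 17.9 and 15.1 CPM in wild-type PAC and 36.7, 34.1 and 31.1 CPM in 35S::KNAT1 PAC, against 21.3, 20.6 and 17.7 CPM and 31.1, 38.4 and 31.2 CPM with GA3. The genotypes were again apart in both media, by 0.93 ± 0.12 (adjusted p = 1.48e-05) and 0.75 ± 0.12, or 1.91-fold and 1.69-fold. BBX13 was the called gene with the smallest difference. It had 20, 19.8 and 17.4 CPM in wild-type PAC and 23.7, 25.2 and 22.1 CPM in 35S::KNAT1 PAC, a rise of 0.31 ± 0.10 (adjusted p = 0.0278). Its call under PAC was lost without wild-type PAC replicate 3 (adjusted p = 0.137) or 35S::KNAT1 PAC replicate 1 (0.0669) or 2 (0.117), and by DESeq2 (0.0599). Under PAC+GA3 (0.32 ± 0.10, adjusted p = 0.0237) it was lost without wild-type PAC+GA3 replicate 3 (0.116), 35S::KNAT1 PAC+GA3 replicate 2 (0.0503) or 3 (0.0915), and by DESeq2 (0.0531). BBX12, 63.2% identical to BBX13, differed by 0.10 ± 0.12 and -0.11 ± 0.11, and AT2G47890 by 0.26 ± 0.14 and 0.16 ± 0.14, none of them called.

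In group III, BBX16 and BBX17 were lower in 35S::KNAT1 and BBX14 and BBX15 were not called. BBX16, also named COL7 and known to promote branching and to act in the response to shade, had 5.98, 5.37 and 7.90 CPM in wild-type PAC and 1.55, 0.816 and 1.38 CPM in 35S::KNAT1 PAC. With GA3 it had 5.70, 6.79 and 10.7 CPM in wild type and 2.07, 0.628 and 2.63 CPM in 35S::KNAT1. Every library of 35S::KNAT1 was below every wild-type library. The differences of -2.37 ± 0.40 (adjusted p = 0.000457) and -2.10 ± 0.36 amount to 5.16-fold and 4.29-fold. BBX17 fell by less, from 26.9, 20.9 and 19.7 CPM to 16.1, 12.3 and 12.7 CPM under PAC (-0.71 ± 0.14) and from 17.1, 18.6 and 17 CPM to 10.6, 8.88 and 11.6 CPM under PAC+GA3 (-0.76 ± 0.14). BBX14 and BBX15, 63.8% identical to each other and far more abundant, differed by -0.11 ± 0.10 and -0.15 ± 0.15 under PAC and by 0.04 ± 0.10 and -0.09 ± 0.15 under PAC+GA3.

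In group IV, whose members mostly act with HY5 and COP1 in light signalling, BBX18 and BBX19 were lower in 35S::KNAT1 while STO and BZS1 were not called. BBX18 and BBX19 are the most alike pair of the family, with 76.2% identical residues, and BBX19 is known to bind CO and delay flowering. BBX18 had 11.2, 9.27 and 12.6 CPM in wild-type PAC and 5.08, 4.08 and 5.71 CPM in 35S::KNAT1 PAC, and 9.21, 11.6 and 10.2 CPM against 4.39, 3.41 and 5.17 CPM with GA3. The libraries of the genotypes did not overlap, and the differences were -1.16 ± 0.18 (adjusted p = 8.27e-05) and -1.25 ± 0.18. BBX19 did not overlap between genotypes in either medium and was lower by -0.70 ± 0.15 and -0.57 ± 0.15. STO, a negative regulator of seedling light responses, was 167, 171 and 177 CPM in wild-type PAC and 161, 120 and 157 CPM in 35S::KNAT1 PAC, a difference of -0.23 ± 0.12 (adjusted p = 0.174). BZS1, a target of brassinosteroid signalling that restrains hypocotyl growth, differed by 0.64 ± 0.28 (adjusted p = 0.105) and 0.33 ± 0.34.

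The descriptions of 3 other genes of group IV do not name a B-box, so they fall outside the 29. STH (BBX25), the partner of STO, was lower in 35S::KNAT1 by -1.29 ± 0.31 under PAC and -1.29 ± 0.31 under PAC+GA3, and LZF1 (BBX22), which promotes greening, was higher by 0.67 ± 0.10 in both media. BBX21, an activator of HY5, was lower by -0.31 ± 0.10 and -0.36 ± 0.09. All 3 were called in both media, BBX21 under PAC not with total-count scaling (adjusted p = 0.0856).

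In group V, BBX32 and BBX27 were lower in 35S::KNAT1 in both media, BBX30 under PAC+GA3, and BBX28 and BBX29 were not called. BBX32, which counteracts BBX21, had 0.867, 1.17 and 2.54 CPM in wild-type PAC and 0.517, 0 and 0.106 CPM in 35S::KNAT1 PAC, from 0 to 27 counts per library over all groups. With GA3 it had 1.39, 1.34 and 1.55 CPM in wild type and 0.414, 0.269 and 0.0876 CPM in 35S::KNAT1. The genotypes did not overlap, and both differences, -2.79 ± 0.66 (adjusted p = 0.00441) and -2.41 ± 0.63, were called. Under PAC the value moved to -4.74 (adjusted p = 0.00126) when 35S::KNAT1 PAC replicate 1 was left out, and to -2.16 (0.0239) when replicate 2 was. BBX27, of higher counts, had 32.3, 35.0 and 36.9 CPM in wild-type PAC and 18.8, 17.4 and 22.5 CPM in 35S::KNAT1 PAC, a fall of -0.83 ± 0.15 that was -0.89 ± 0.15 with GA3. BBX30, like BBX31 a small protein that joins CO to TOPLESS, had 2.12, 1.95 and 4.64 CPM in wild-type PAC+GA3 and 1.49, 0.359 and 1.66 CPM in 35S::KNAT1 PAC+GA3.

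That difference in BBX30, -1.29 ± 0.45, was just past the threshold (adjusted p = 0.0445). It was not called without wild-type PAC+GA3 replicate 3 (-0.79, adjusted p = 0.239) or 35S::KNAT1 PAC+GA3 replicate 1 or 2 (0.0619 and 0.152), nor without wild-type PAC replicate 2 or any 35S::KNAT1 PAC replicate, where it lay between 0.0525 and 0.0577. Under PAC it differed by -0.82 ± 0.50 (adjusted p = 0.255). The change between media was not called, with an interval of -2.03 to 1.11. BBX28, a negative regulator of light responses, had 36.7, 41.1 and 41.4 CPM in wild-type PAC and 28.2, 19.7 and 31.9 CPM in 35S::KNAT1 PAC. Its genotypes did not overlap in either medium, yet -0.58 ± 0.23 (adjusted p = 0.0847) and -0.60 ± 0.22 (0.0728) missed the threshold. BBX29 had 1 to 17 counts per library and was not called.

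Counting genes whose 3 libraries of one genotype all lay on one side of the other's gave 16 of 24 under PAC, 4 higher and 12 lower, where 40.4% of all genes were so separated. Under PAC+GA3 it gave 14 of 24, 3 higher and 11 lower, against 38.6%. When the 3 libraries rich in rRNA counts were left out, wild-type PAC kept a single library, assumed to vary like the other groups, and 9 B-box genes were called under PAC, where 12.7% of all genes were, and 12 under PAC+GA3, where 20.7% were. BBX13 (adjusted p = 0.333), BBX32 (0.17), BBX19 (0.136) and COL4 (0.0545) then lost their calls under PAC, and BBX14 was called (-0.37, adjusted p = 0.0485).

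Other lists give the surroundings of these genes. Of 17 circadian clock genes, 14 were called under PAC, 6 higher and 8 lower (82.4%, against 25.2% of all tested genes). Under PAC+GA3, 12 were called, 5 higher and 7 lower (70.6%, against 25.5%). CCA1, a morning clock factor, had 50.3, 68.1 and 83.3 CPM in wild-type PAC and 15.1, 10.7 and 18.1 CPM in 35S::KNAT1 PAC, a difference of -2.21 ± 0.26 that was -2.19 ± 0.26 with GA3. PRR5, of the later part of the day, moved the other way, from 15.1, 14.4 and 13.2 CPM to 36.0, 32.6 and 36.6 CPM (1.30 ± 0.11, and 1.04 ± 0.10 with GA3). RVE1, a relative of CCA1, was lower (-1.15 ± 0.13 and -0.96 ± 0.13), and ELF4, of the evening complex, was higher (0.82 ± 0.13 and 0.85 ± 0.12). The part of these differences in those of the B-box genes was not tested.

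Of the photoperiod genes upstream and around CO, 21 of 23 were tested. Under PAC, 3 were higher and 5 lower (38.1%, against 25.2% of all tested genes). Under PAC+GA3, 2 were higher and 8 lower (47.6%, against 25.5%). FKF1, the blue-light receptor that removes repressors of CO, had 5.55, 10.4 and 6.02 CPM in wild-type PAC and 24.4, 35.5 and 28.1 CPM in 35S::KNAT1 PAC, a rise of 2.01 ± 0.20 (1.65 ± 0.19 with GA3). GI, its partner, rose by 0.81 ± 0.10 and 0.75 ± 0.10. FBH3, an activator of CO, fell by -0.44 ± 0.13 and -0.75 ± 0.13. NF-YB3, a partner of CO at FT, differed by -0.25 ± 0.11 under PAC (adjusted p = 0.0951) and fell by -0.49 ± 0.11 under PAC+GA3 (adjusted p = 0.00216). CO was not called in either medium. With total-count scaling the list gave 4 higher and 1 lower under PAC, where FBH3 was not called (adjusted p = 0.0591), and 5 higher and 4 lower under PAC+GA3.

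Of 25 light signalling genes, 1 was higher and 6 were lower under PAC (28%, near the 25.2% of all tested genes). Under PAC+GA3, 2 were higher and 7 lower (36%, against 25.5%). With total-count scaling, SPA1 (adjusted p = 0.06) and SPA3 (0.151) were not called under PAC. HYH, the relative of HY5, had 22, 22.2 and 32.5 CPM in wild-type PAC and 10.3, 7.42 and 9.52 CPM in 35S::KNAT1 PAC, a fall of -1.49 ± 0.18 (-1.83 ± 0.18 with GA3). The photoreceptor gene PHYA fell by -0.85 ± 0.11 and -0.64 ± 0.11, and RUP2, a brake on ultraviolet-B signalling, by -0.92 ± 0.18 and -0.83 ± 0.16. PIF1, a factor that restrains light responses, rose by 0.59 ± 0.09 and 0.54 ± 0.09. Of 12 tested genes known as targets of HY5 and B-box proteins, 1 was higher and 6 were lower under PAC (58.3%). Under PAC+GA3, 1 was higher and 5 were lower (50%). ELIP2, an early light-induced protein of the chloroplast, fell from 4.42, 6.93 and 8 CPM to 0.0862, 0.245 and 0.106 CPM under PAC (-5.32 ± 0.47, and -3.68 ± 0.38 with GA3). These low values are at or below the level of 3 counts per library, so the size of the fall under PAC rests on few reads. DFR, of anthocyanin synthesis, fell by -2.00 ± 0.38 and -2.59 ± 0.67, and CHI, of flavonoid synthesis, by -0.62 ± 0.12 and -0.68 ± 0.12. MYB12, an activator of flavonol synthesis, rose by 0.70 ± 0.16 and 1.16 ± 0.16.

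**Figure D4:**
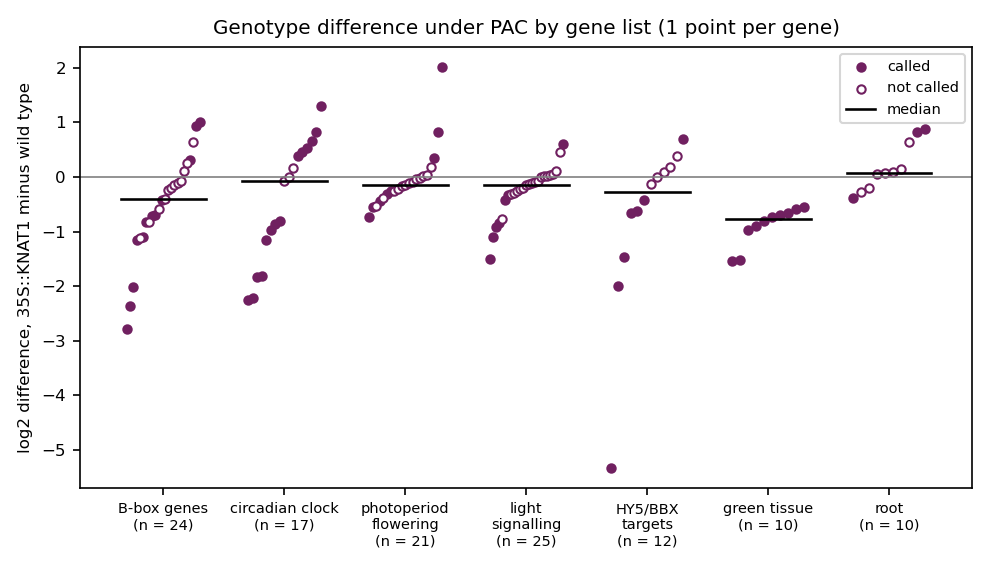
Difference between 35S::KNAT1 and wild type under PAC (y axis, log2) for the 24 tested B-box genes and 6 other gene lists, 1 point per gene; filled points are called and horizontal lines are medians. The B-box genes have a median of -0.41, the 10 green-tissue markers lie all below 0 with a median of -0.77, and the 17 clock genes spread to both sides.

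Green-tissue markers moved with genotype as well. All 10, among them genes of Rubisco and of the light-harvesting complexes, were lower in 35S::KNAT1 in both media, with a median of -0.77 under PAC and -0.89 under PAC+GA3. Their summed level was 41030 to 43090 CPM in wild-type PAC and 20000 to 26010 CPM in 35S::KNAT1 PAC, and 40000 to 51650 against 20690 to 26150 CPM with GA3. The summed level of the 29 B-box genes was 1003 to 1122 CPM in wild-type PAC and 804.2 to 974.4 CPM in 35S::KNAT1 PAC. Of 10 root markers, 2 were higher and 1 lower under PAC, and 3 were higher under PAC+GA3. That is 30% in each medium, near the 25.2% and 25.5% of all tested genes. Their sums were 4204 to 5895 CPM in wild-type PAC and 3929 to 4185 CPM in 35S::KNAT1 PAC. These sums were mostly PYK10, at 5750, 4070 and 4570 CPM in wild-type PAC and 4040, 3800 and 3990 CPM in 35S::KNAT1 PAC. PYK10 was not called under PAC (adjusted p = 0.19). The part of the green-tissue markers in the differences of the B-box genes was not tested. In bulk seedlings, fewer green cells and less RNA per green cell cannot be told apart.

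Within groups, some libraries held the lowest or highest level for many of the 24 genes. In 35S::KNAT1 PAC, replicate 2 held the lowest level of the 3 for 19 of the 24 genes (79.2%), where it did so for 32.9% of all tested genes. In 35S::KNAT1 PAC+GA3, replicate 2 was the lowest for 14 of 24 (58.3%, against 32.1%) and replicate 3 the highest for 14 (58.3%, against 34.4%). COL2 at 4.57 and 5.02 CPM, COL1 at 12.2 and 13.2 CPM and BBX16 at 0.816 and 0.628 CPM are examples, whereas COL9 was highest in the same libraries, at 41.2 and 41.8 CPM. CCA1 was also lowest there, at 10.7 and 12 CPM. In wild-type PAC+GA3, replicate 1 was the lowest for 12 (50%, against 31.7%) and replicate 3 the highest for 12 (50%, against 31.4%). In wild type, PAC replicate 3 was the highest for 14 of 24 (58.3%, against 31.9%), and it held the top PAC level of COL2, COL1 and BBX16 and the lowest of COL9, BBX8 and BBX13. What sets these libraries apart was not tested.

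GA3 moved far less. In wild type 0 of the 24 genes were called between PAC+GA3 and PAC, where 9 of 19879 genes (0.0453%) were called, 1746 had an unadjusted p below 0.05 (8.78%) and DESeq2 called 43 (0.216%), none of them a B-box gene; 3 of the 24 had an unadjusted p below 0.05. In 35S::KNAT1 0 of 24 were called, where 22 genes were called (0.111%), 1116 had an unadjusted p below 0.05 (5.61%) and DESeq2 called 44 (0.221%), again none of the family; 2 of the 24 had an unadjusted p below 0.05. With replicate number as a block, 94 and 81 genes were called (0.473% and 0.407%), and still 0 of the 24. The median GA3 difference of the family was 0.02 in both genotypes. The libraries of PAC and PAC+GA3 did not overlap for 3 of 24 genes in each genotype, BBX17, BBX14 and BZS1 both times, all lower with GA3; 5.94% of all genes were lower without overlap in wild type and 6.82% in 35S::KNAT1.

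BZS1 had the lowest GA3 difference in both genotypes, and it is described because of its values. It had 2.95, 4.19 and 3.20 CPM in wild-type PAC and 1.75, 1.13 and 2.55 CPM in wild-type PAC+GA3. In 35S::KNAT1 it had 5.00, 4.89 and 6.24 CPM under PAC and 3.23, 1.17 and 2.45 CPM under PAC+GA3. All 6 libraries with GA3 lay below the PAC libraries of their genotype, by -0.91 ± 0.32 (adjusted p = 0.432) and -1.21 ± 0.29 (adjusted p = 0.169), or 1.88-fold and 2.32-fold, on 11 to 60 counts per library. The replicate block left it short of the threshold, with adjusted p = 0.212 in wild type and 0.0608 in 35S::KNAT1. The mean of both GA3 differences, a contrast added after these values were seen, was -1.06 ± 0.22 with an adjusted p of 0.0278, where 0.775% of all genes were called. Under the block that mean also called BBX17 (-0.38 ± 0.09, adjusted p = 0.022) and BBX14 (-0.26 ± 0.06, adjusted p = 0.0278), where 2.96% of all genes were called.

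BBX14 had 158, 114 and 124 CPM in wild-type PAC and 101, 105 and 108 CPM in wild-type PAC+GA3, against 131, 112 and 125 CPM and 109, 107 and 106 CPM in 35S::KNAT1. Its GA3 differences of -0.33 ± 0.10 (adjusted p = 0.35) and -0.19 ± 0.10 (0.923) were not called. BBX17 differed by -0.36 ± 0.13 (adjusted p = 0.461) and -0.41 ± 0.15 (0.668). In the clock, photoperiod, light signalling, HY5 target, green-tissue and root lists, edgeR likewise called 0 of 95 genes for GA3 in either genotype, with 14 and 10 at an unadjusted p below 0.05. With the replicate block, the clock gene CHE rose (0.47, adjusted p = 0.0292) and FLS1, DFR and LDOX of flavonoid synthesis fell in wild type (-0.50, -2.04 and -1.79, adjusted p = 0.026, 0.0125 and 0.00152), and LDOX fell in 35S::KNAT1 (-2.47, adjusted p = 0.00282).

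**Figure D5:**
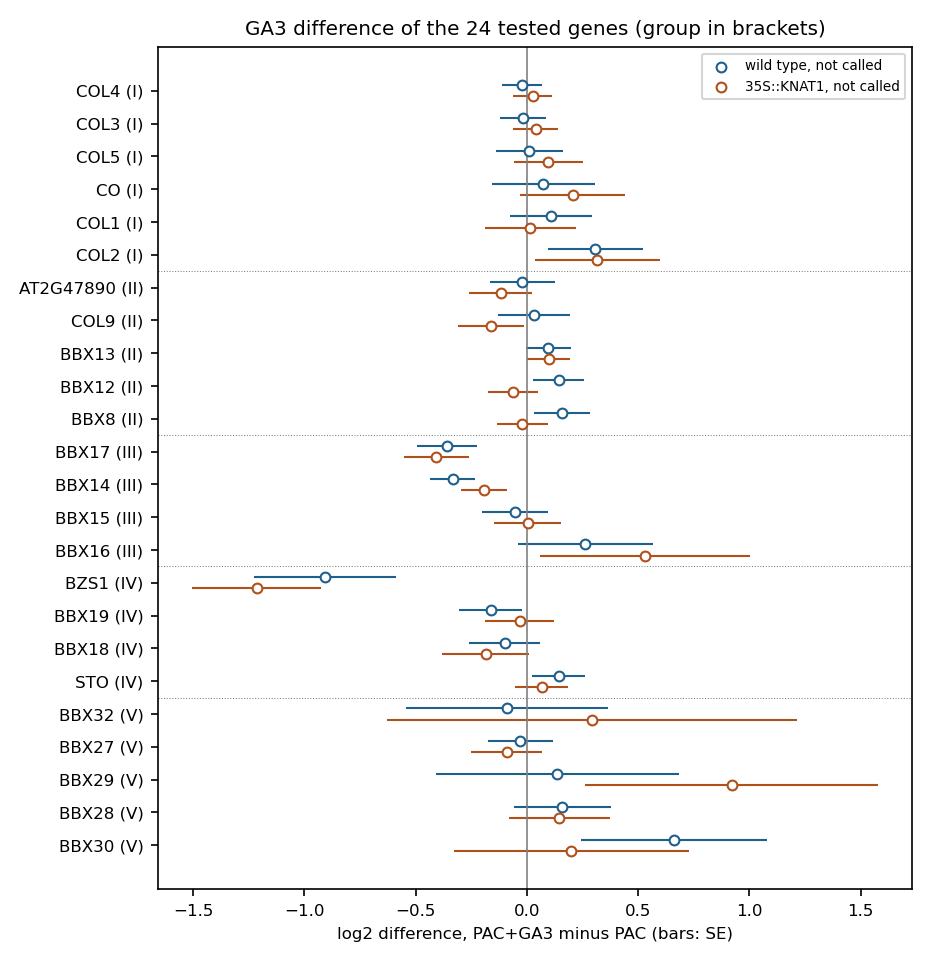
Difference between PAC+GA3 and PAC (x axis, log2) for the 24 tested B-box genes in wild type and in 35S::KNAT1, sorted by structural group; open points are not called and bars are SE. All points are open, and BZS1 lies farthest left at -0.91 and -1.21.

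Whether the GA3 difference depended on genotype was tested by the interaction, in which 0 of the 24 genes and 0 of all 19879 were called by edgeR, by edgeR with the replicate block and by DESeq2, and 363 genes (1.83%) had an unadjusted p below 0.05, 0 of them among the 24. The 95% intervals differed in width among genes. They were -0.24 to 0.34 for COL4, -0.32 to 0.33 for BBX13 and -0.57 to 0.21 for BBX8. For COL1 and BBX28, of no lower counts than BBX13, they were -0.728 to 0.545 and -0.743 to 0.715. For COL2 the interval was -0.78 to 0.79 and for CO -0.63 to 0.90. For BZS1 it was -1.32 to 0.70, and for BBX32 -1.99 to 2.75, so differences of either sign remain within both intervals.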

How the data were processed

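RNA of whole seedlings was sequenced in 12 libraries, 3 in each of 4 groups. Per the labels' protocols, RNeasy and Trizol are both named for extraction, as are a stranded and another TruSeq kit. The authors deposited unpooled read counts, not normalized, with 1 row for each gene and 1 column for each library. The submitters' processing notes name TAIR10 and, with no roles, edgeR 3.0.2, DESeq2 1.16.1, TopHat2 2.1, FastQC 0.11.5 and cutadapt 1.8.3. How reads were counted, and whether by strand, is not given in the sources used here, so antisense and near-identical genes may share reads.

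The members, gene lists and rules were chosen with earlier results of these data known. Counts were tested in edgeR 4.0.16 (R 4.3.3) after filterByExpr (minimum count 10) and TMM scaling (factors 0.946 to 1.064), by 1 robust quasi-likelihood fit of 4 group means to all 12 libraries (biological coefficient of variation 10.3%). SE is the log2 difference over the root of F. Intervals of the interaction are 95% with 8 degrees of freedom. CPM is TMM-scaled. The floor of 3 counts covers counting error only. Only the genotype comparison under PAC in the main fit was checked on simulated counts, drawn with that fit's own spread.

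Values per library follow a rule: CO, called genes with a difference of at least 1 in size, genes called for GA3, the called gene nearest to 0, and up to 4 genes per other list by smallest p. COL9, BBX8, BBX17, BBX14, BBX27, BBX28, COL4, COL5, STO, BZS1 and the 3 genes outside the 29 were added after their values were seen. Replicates differed by a chi-square of 3.82 to 15.44 per degree of freedom, far above the noise of repeated counting.

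Same-numbered libraries deviated together between media, with correlations of 0.359, 0.17 and 0.288 in wild type and 0.169, 0.12 and 0.203 in 35S::KNAT1. Between genotypes under PAC they gave 0.25, 0.22 and 0.103. Under PAC+GA3 the genotypes gave 0.134, -0.029 and 0.079. The numbers come from the titles, which state no pairing. The main fit left them out, so its p-values use no pairing, and the replicate block was run as an alternative.

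Alternatives were total-count scaling or DESeq2 size factors in place of TMM, no filter or a stricter filter of 5 CPM in 3 libraries, the Wald test of DESeq2 1.42.0, a fit of the compared groups alone, a replicate block, and leaving out each library or the 3 rich in rRNA. The files' coordinates fitted RefSeq TAIR10.1, where 31902 of 32673 loci were found and overlapped; promoters, exon lengths and proteins come from it.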

Additional observations from a re-analysis of the deposited data

How the results depend on the processing

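The number of B-box genes called between genotypes stayed within 1.5 times its main value in every alternative run, from 9 to 14 under PAC (12 as reported) and from 11 to 15 under PAC+GA3 (13 as reported), and no B-box gene called between genotypes changed direction. Among those not called, values near 0 changed sign: COL3 in 3 alternatives in each medium, CO in 3 and BZS1 in 2 under PAC+GA3, BBX15 in 1 in each, BBX14 in 1 under PAC and BBX29 in 1 under PAC+GA3. The share of all tested genes called also moved between alternatives, so a steady count of B-box genes does not describe the family alone. With the replicate block, 13 B-box genes were called under PAC, the added gene being COL5 (adjusted p = 0.0121). The share of all tested genes called under PAC then went from 25.2% to 31%. Under PAC+GA3, where same-numbered libraries did not all deviate together, the block called 15, adding COL5 (0.034) and STO (0.0207). It called 6297 genes in all there, 31.7% of those tested, against 25.5% in the main fit. The block changed no other call of a B-box gene in the genotype and GA3 comparisons or their interaction; for the mean GA3 difference it added BBX17 and BBX14. BBX13 lost its call in 5 of 20 alternatives under PAC and 4 of 20 under PAC+GA3, and BBX30 in 10 of 19, among them total-count scaling (adjusted p = 0.0513) and only the groups compared (0.0795). Of genes not called, COL5 gained a call in 6 alternatives under PAC, DESeq2 among them (0.0431), and in 2 under PAC+GA3, BBX28 in 3 in each medium, STO in 4 under PAC+GA3, and BZS1 and BBX14 in 1 each under PAC. Within each genotype, GA3 gave 0 calls among the B-box genes in each of the 20 alternatives. Among all genes, the GA3 counts moved by over 1.5 times, from 9 in wild type to 94 with the block, 14 with total-count scaling, 18 without a filter, 43 by DESeq2, 2 with only the groups compared and 0 without the rRNA-rich libraries. In 35S::KNAT1 they moved from 22 to 81 with the block, 44 by DESeq2, 37 with only the groups compared and 9 without the rRNA-rich libraries. Leaving out each library gave 3 to 16 in wild type and 2 to 24 in 35S::KNAT1. Between genotypes under PAC, 2577 genes were called without the rRNA-rich libraries against 5017. The cause was not tested. BBX32, BBX29, BBX30 and CO have few counts and gave no value under the stricter filter, nor did BBX32 and BBX29 with only the groups compared under PAC and for GA3 in 35S::KNAT1; for them, counting noise and spread between libraries were not separated.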
